A study of Mus musculus with 4 samples.

Results

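The tRNA genes described here are the 93 of 403 annotated mouse tRNA genes, on 13 chromosomes, that lay next to a peak of a Tet1 chromatin immunoprecipitation sequencing (ChIP-seq) experiment in spermatogonia, the dividing germ cells at the start of sperm formation. A gene was a member when the summit of a listed peak fell inside it or within 500 bp of it, in the list from Tet1 knockout (KO) cells, in the list from wild-type (WT) cells, or in both. The members were thus chosen by the deposited peak positions, and the counts, pileups and folds that follow describe those same values and carry no test. The KO ChIP and WT ChIP libraries were made with a Tet1 antibody, and each had an input without antibody from the same genotype, so that there were 4 libraries with 1 per group. All came from sorted cells (20000 per the labels) of 129 mice at 3 months of age. The number of animals per library, the sorting markers and the deleted part of Tet1 are not given in the sources used here. With 1 library per group, no value has a replicate check.

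The ChIP libraries were shallow, with 2235818 KO tags and 3081692 WT tags left after the authors' duplicate filter, a KO/WT ratio of 0.726. The lists held 198 KO peaks and 352 WT peaks on the chromosomes. Neither had a peak inside Tet1 or within 3000 bp of it, and a peak list does not show whether Tet1 protein was lost in the KO cells or whether the sorted cells carried spermatogonial markers. Fewer cells with the signal and less signal per cell cannot be told apart in such data.

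Transfer RNAs carry amino acids to the ribosome and read codons through their anticodon. Their genes are short, are transcribed by RNA polymerase III and have their promoter inside the gene, in the A box and the B box, which the factor TFIIIC binds. Transcription ends at a run of T just past the gene. Tet1 is a dioxygenase that oxidises 5-methylcytosine. In the gene names, the letter after n-T is the amino acid and the next 3 letters are the anticodon. tRNA genes occur in near-identical copies, and how reads that fit several copies were placed is not given in the sources used here, so the choice between copies is uncertain.

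To show what lies under such a peak, the sequences available for members are given first. The RefSeq promoter windows of GRCm38.p6 (the mm10 build) are set on other genes, and 4 of them happen to hold a whole tRNA gene. A single member is among these, n-TRtcg5, an arginine tRNA gene at chr7:79466419-79466491 on the plus strand, inside the annotated span of Polg, the gene of the mitochondrial DNA polymerase. It was in the WT list alone, with 14 tags (95% Poisson interval 7.65 to 23.5) and the summit 20 bp from the gene. It is shown with 30 bases on each side, so that the gene begins at base 31. Capitals mark the A box, the B box and a run of 5 T that starts at base 13 after the gene.
n-TRtcg5: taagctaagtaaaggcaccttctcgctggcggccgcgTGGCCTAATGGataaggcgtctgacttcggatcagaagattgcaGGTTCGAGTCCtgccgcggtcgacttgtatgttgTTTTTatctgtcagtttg

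Of a second arginine tRNA gene, n-TRacg6 (chr14:54517696-54517768), the first 25 bases fall in the window of Prmt5, an arginine methyltransferase gene, and they hold the A box. Its WT peak had 11 tags with the summit inside the gene.
n-TRacg6, first bases: gggccagTGGCGCAATGGataacgc

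For comparison, 3 tRNA genes that were in neither list are whole in such windows: a threonine gene at chr7:35234770-35234843, an alanine gene at chr13:21222586-21222657 and a valine gene at chr13:23446142-23446214.
n-TTagt9: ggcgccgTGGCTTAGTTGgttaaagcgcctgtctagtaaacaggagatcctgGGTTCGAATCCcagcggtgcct
n-TAagc16: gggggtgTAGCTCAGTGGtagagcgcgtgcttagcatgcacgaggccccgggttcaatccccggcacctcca
n-TVcac9: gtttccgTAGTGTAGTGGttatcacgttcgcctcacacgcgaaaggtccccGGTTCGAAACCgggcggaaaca

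The A box stood at bases 8 to 18 in all 5 of these genes. In the whole genes it was searched only near the gene start, so the search partly sets this position. Their strand was taken as the one that best matched the boxes and the anticodon. The B box was searched as GGTTCGANNCC on both strands and was found in n-TRtcg5 and in n-TTagt9 and n-TVcac9. The alanine gene n-TAagc16 has no match to these letters, but it holds ggttcaatccc, which differs from them only by an A in place of a G. Over all 32817 promoter windows, 40 (0.122%) held the B box letters, and 6 of those 40 overlapped an annotated tRNA gene. The A box consensus is loose and matched 34.4% of the windows on either strand. These sequences therefore place both boxes inside a member and inside genes with no listed peak alike. The sequences of the other members are not used here.

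In the KO list 58 of the 403 tRNA genes (14.4%, 95% Clopper-Pearson interval 11.1 to 18.2) lay next to a peak, against 0.31% of all 49943 annotated genes. In the WT list it was 75 (18.6%, 14.9 to 22.8), against 0.681% of all genes. Peaks of both lists lay next to 40 tRNA genes, against 0.184% of all genes, and peaks of either list next to the 93 members, against 0.807%. The members divide into 18 in the KO list alone, 40 in both and 35 in the WT list alone. The 40 shared genes were 69.0% of the KO genes (55.5 to 80.5) and 53.3% of the WT genes (41.4 to 65.0). Genes next to the same peak are not independent, so the intervals of all shares of tRNA genes given here are too narrow. Over all annotated genes 92 were shared, of 155 next to a KO peak and 340 next to a WT peak. Among genes other than tRNA genes 52 were shared, of 97 next to a KO peak and 265 next to a WT peak. Because the rule selects on listed peaks, nothing about tRNA genes is read from the distance between these shares and the shares of all genes.

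These genes shared peaks. The 58 KO genes belonged to 40 peaks, which were 20.2% of the chromosomal KO peaks (14.8 to 26.5), and the 75 WT genes to 49 peaks, which were 13.9% (10.5 to 17.98). A KO peak had 1 tRNA gene within 500 bp in 24 cases, 2 in 13 and 3 in 3, and a WT peak had 1 in 26 cases, 2 in 18 and 3 in 5. When each peak was given only to its nearest tRNA gene, 40 KO genes and 49 WT genes were left, of which 24 were the same.

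The summits sat on or beside the tRNA gene, well inside the 500 bp limit. The nearest tRNA gene was a median of 30 bp from the summit in the KO list and 41 bp in the WT list. No summit of these peaks lay farther than 157 bp (KO) or 170 bp (WT) from its nearest tRNA gene. It was within 100 bp for 36 of 40 KO peaks (90%, 76.3 to 97.2) and 39 of 49 WT peaks (79.6%, 65.7 to 89.8), and inside the gene for 10 and 11. The wider limit thus acted by adding neighbouring tRNA genes of the same cluster. The members farthest from a summit were n-TMcat14 (475 bp), n-THgtg3 (474 bp) and n-TAcgc10 (433 bp), each a neighbour of another member. The nearest genes left out were n-TSaga8 (517 bp from a WT summit), n-TEctc11 (535 bp from a KO summit) and n-TLtaa4 (537 bp from a KO summit).

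**Figure D1:**
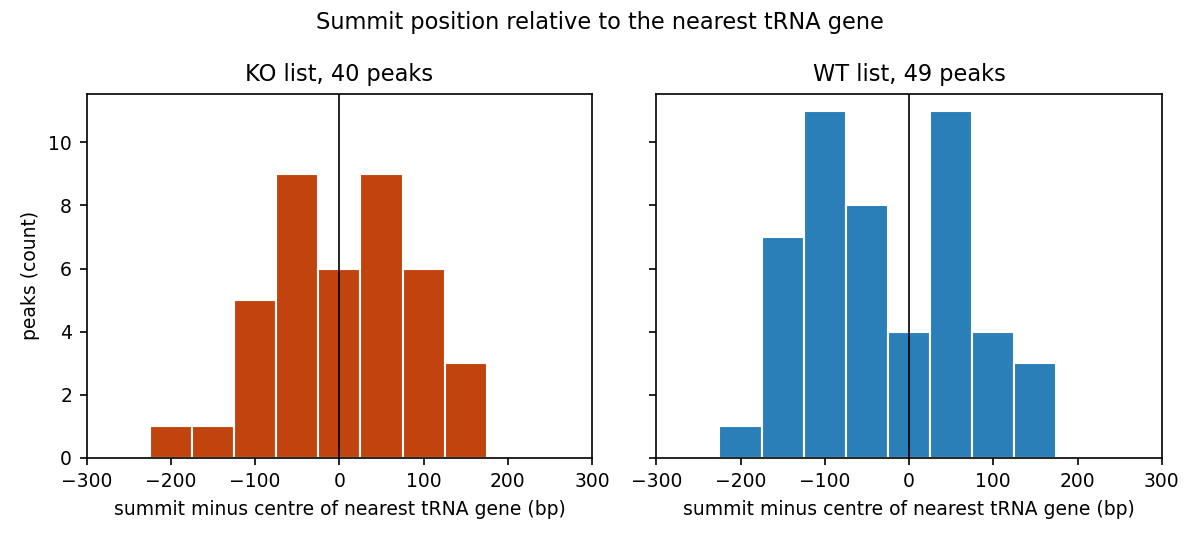
Position of each summit relative to the centre of its nearest tRNA gene, in bp along the chromosome (the strand of most genes was not used), as counts of peaks in 50 bp bins for the KO list (left, 40 peaks) and the WT list (right, 49 peaks). In both lists the summits gather around the gene, with none more than 157 bp (KO) or 170 bp (WT) from the nearest gene.

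Peaks next to tRNA genes were low and arose where the input was low. Their summit pileup, the count of ChIP tags, extended to fragment length, that cover it, had a median of 7 in KO (range 5 to 13) and 8 in WT (range 5 to 16). The authors' fold enrichment over input had a median of 6.36 in KO (4.36 to 11.2) and 5.96 in WT (3.29 to 11.2). A q-value of at most 0.05 was reached by 37 of 40 KO peaks and 45 of 49 WT peaks. The local input background at the summit was at most 4.81 times the genome-wide value in KO and 5.09 times in WT, so that none lay in a region of high input. These highest backgrounds were only 1.19567 (KO) and 1.73801 (WT) scaled input tags, so that they rest on very few reads. For 16 of 40 KO peaks and 19 of 49 WT peaks the background was the genome-wide value. Among those peaks of a list the fold varies with the pileup alone. The other low-input peaks had median pileups of 7 in KO (92 peaks) and 6 in WT (249 peaks), and median folds of 5.89 and 5.22. The number of tRNA genes near a KO peak did not go with its height, with a median pileup of 7 for peaks with 1, 2 or 3 tRNA genes. In WT the medians were 8, 8 and 11, the last over 5 peaks.

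**Figure D2:**
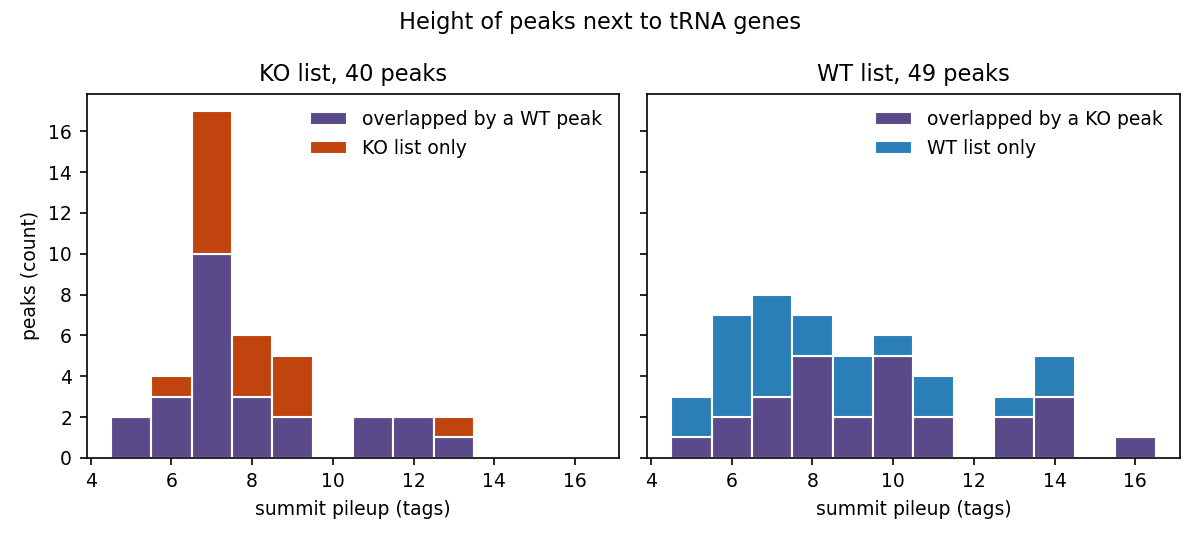
Summit pileup in tags of the peaks next to tRNA genes, as counts of peaks in the KO list (left) and the WT list (right), with peaks found in the same place in the other genotype at the bottom of each bar and the rest above. KO pileups run from 5 to 13 tags and WT pileups from 5 to 16, and overlapped peaks occur at every height that has a peak.

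All 20 standard amino acids were represented, 18 of them in the KO list and 19 in the WT list. Of the 48 anticodon families in the annotation, 39 had a member, 30 with a KO gene and 36 with a WT gene. No family of 4 or more genes had every gene next to a peak. The families of that size with none were Gly-CCC (6 genes), Gln-TTG (6 genes) and Thr-CGT (4 genes), and intervals for such small families reach up to 45.9% and, for Thr-CGT, 60.2%. The annotation used here has no gene named for a selenocysteine or suppressor tRNA.

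Methionine tRNA genes, which include the initiator tRNA as well as the elongator (the names do not separate these), had the highest share, 8 of 16 (50%, 24.7 to 75.3), with 5 in KO, 6 in WT and 3 in both. Leucine followed with 11 of 25 (44.0%, 24.4 to 65.1), with 7 in KO, 10 in WT and 6 in both. Among the leucine anticodons, AAG had 4 of 5 genes (1 in KO, 4 in WT), CAG 4 of 10 (4 and 3), TAG 2 of 3 (2 and 2), CAA 1 of 4 (0 and 1) and TAA 0 of 3. Some of these genes lay farther from the summit than a gene of another family. The summit 475 bp from n-TMcat14 was 4 bp from n-TKctt28, and that 167 bp from n-TMcat15 was 110 bp from n-TLaag7. The summit 391 bp from n-TLaag6 was 54 bp from n-TVaac7, and n-TLaag5 and n-TLaag7 shared a WT peak. Shares by nearest gene were not computed for amino acids or anticodons. Tyrosine, whose tRNA genes contain an intron, had 4 of 10 (4 in KO, 3 in WT). Shares of 25% to 37.5% were found for Asp, Thr, Arg, Ile, Phe, Ser, Gly and Trp, and of 12.5% to 23.1% for Lys, Ala, His, Val, Glu, Pro and Gln. With so few genes the intervals of most amino acids overlap, as those of methionine and glutamine (2 of 16, 1.55 to 38.3) do.

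Cysteine stood at the other end. It is the largest family, with 57 genes of anticodon GCA, and 2 were members (3.51%, 0.428 to 12.1), both in the KO list alone. None of the 49 cysteine tRNA genes on chromosome 6 had a peak in either list (0%, 0 to 7.25), although most of them lie in clusters of 22, 10, 9, 4 and 2 genes between 48133937 and 48363603. The KO members were n-TCgca55 (6 tags, fold 4.38, q = 0.0586) and n-TCgca54 (9 tags, fold 4.55, q = 0.0122), neighbours on chromosome 11. The local input background at n-TCgca54 was 4.81 times the genome-wide value. This was level with that at n-TMcat11 and above all other KO peaks next to tRNA genes. The background was 1.19567 scaled input tags and thus rests on very few reads, and its part in the result was not tested. Without the cysteine family the shares were 16.2% (56 of 346) in KO and 21.7% (75 of 346) in WT. Asparagine had 1 member of 13, in WT.

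Some amino acids differed between the lists in count. Aspartate had 2 genes in KO and 6 in WT, arginine 3 and 6, and histidine 0 and 2. Valine had 2 in each list and none in common. Glycine (6 and 6, 5 in common), alanine (5 and 5, 4 in common) and tryptophan (2 and 2, both in common) were close to the same in both. Since no group has a second library, these counts do not separate genotype from the difference between single libraries.

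**Figure D3:**
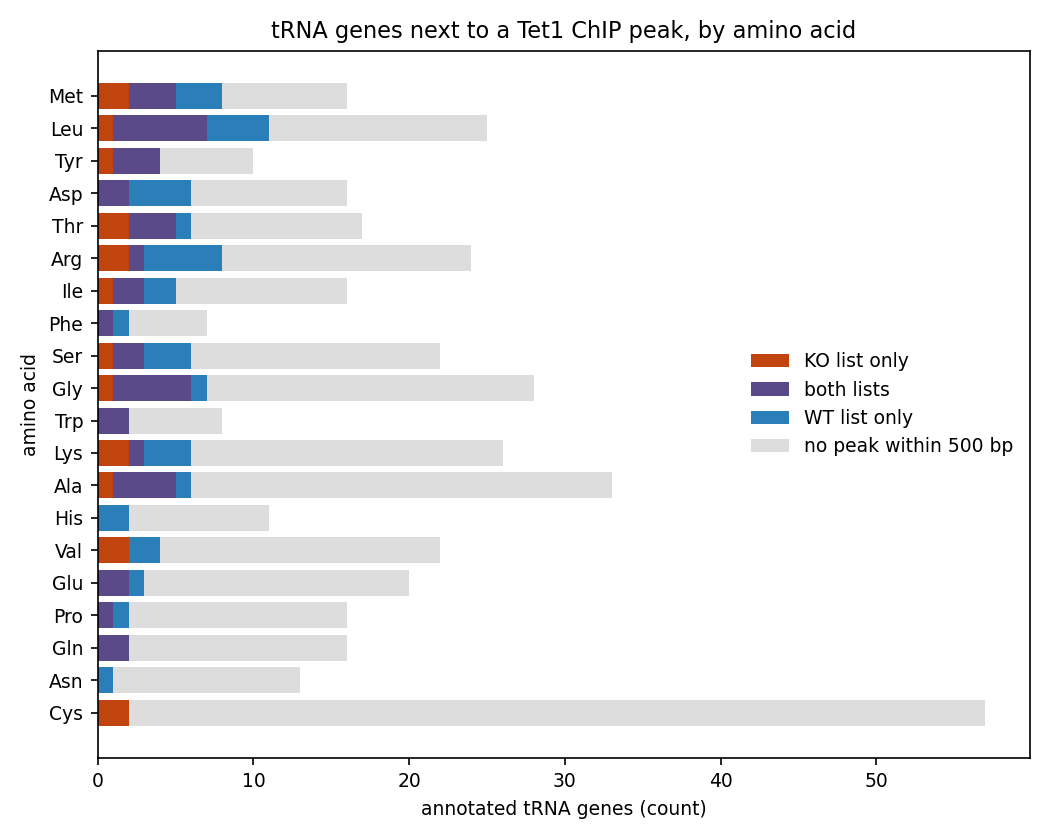
Annotated tRNA genes per amino acid (count), ordered by the share next to a peak, split into the KO list alone, both lists, the WT list alone and no peak within 500 bp. Methionine (8 of 16) and leucine (11 of 25) lead, and cysteine (2 of 57) is last although it has the most genes.

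The members lay mostly in clusters, taken here as tRNA genes with gaps of at most 10000 bp. The annotation gave 64 clusters of 2 or more genes with 293 genes in all and 110 genes alone. Clusters held 84 of the 93 members and 30 of the 64 had at least 1. Of the genes alone, 9 were members (8.18%, 3.81 to 15.0), against 38 of 104 in clusters of 2 to 4 genes (36.5%, 27.3 to 46.6), 37 of 103 in clusters of 5 to 9 (35.9%, 26.7 to 46.0) and 9 of 86 in clusters of 10 or more (10.5%, 4.90 to 18.9). Part of this follows from the rule, because 1 summit can take in several genes of a tight cluster. The 86 genes of the largest clusters include the chromosome 6 clusters of 22 and 10 cysteine genes, which had no member. Genes of 1 cluster are not independent, so the intervals by cluster size are too narrow. When only the nearest gene of each peak was kept, 42 of 65 genes (64.6%, 51.8 to 76.1) had another tRNA gene within 1000 bp, against 126 of the other 338 (37.3%, 32.1 to 42.7). The 338 include members that were not the nearest gene of a peak. Among the tRNA genes that were not members it was 98 of 310 (31.6%, 26.5 to 37.1).

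Chromosomes 11 and 13 held 56 of the members. On chromosome 11, 29 of 47 tRNA genes were members (61.7%, 46.4 to 75.5), with 19 in KO and 20 in WT, and on chromosome 13, which has the most tRNA genes, 27 of 105 (25.7%, 17.7 to 35.2), with 13 in KO and 20 in WT. Chromosomes 4, 6, 15, 16, 17 and X had tRNA genes and no member.

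Of the clusters with 6 members, the most compact in genes was on chromosome 11 at 69110465 to 69125248, among Per1, a core circadian clock gene, Hes7, a repressor of the somite clock, and Aloxe3, a lipoxygenase gene, with 6 of 7 genes. The genotypes shared the peak at n-TLtag3 and n-TQctg6, with 11 tags in KO and 13 in WT. The peak of 14 WT tags at n-TTagt5 and n-TScga3 had no KO counterpart, and the KO peaks of 7 tags each at n-TGgcc5 and n-TKctt27 had no WT counterpart. Within one cluster the lists thus held shared and unshared peaks side by side.

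Close by, at 69037003 to 69041897 on chromosome 11 next to Ctc1, a telomere maintenance gene, 5 of 7 genes were members. The peak at n-TDgtc9, n-TGtcc6 and n-TWcca7 had 7 tags in KO and 8 in WT, and n-TIaat5 and n-TSaga4 had a peak of 7 tags in KO alone. All 4 genes of the next cluster, n-TIaat4, n-TTagt7, n-TSgct3 and n-TWcca6 (69062320 to 69063566, beside Borcs6), were in both lists, with peaks of 8 and 7 tags in KO and of 10 and 11 in WT.

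On chromosome 13 the cluster at 23425646 to 23453514 had 6 members of 14 genes, 3 in each list and none in common. Its KO genes were n-TYgta7 (8 tags), n-TTagt6 (8 tags) and n-TLcag10 (9 tags). Its WT genes were n-TKctt11 (8 tags) and the pair n-TIaat8 and n-TAcgc10, which shared a peak of 6 tags. The WT genes lay between n-TYgta7 and n-TTagt6, with KO genes on both sides, and no peak of one list overlapped a peak of the other. There were 3 clusters of this kind, with members in each list and no gene in common, out of 25 clusters or single genes with members in both lists.

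The cluster at 21160785 to 21172942 on chromosome 13 leaned to WT, with 1 of 9 genes in KO and 6 in WT. The shared gene was n-TFgaa4, a phenylalanine tRNA gene, with 13 tags in KO and 10 in WT. The WT list added a peak of 13 tags (fold 10.3) near n-TMcat15, n-TLaag7 and n-TLaag5 and another of 7 tags at n-TMcat14 and n-TKctt28.

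The smaller clusters with 3 or more members fell into shared, mixed and WT-only ones. Shared peaks took in the tyrosine genes n-TYgta1 and n-TYgta2 with n-TAagc14 on chromosome 3 (7 tags in KO, 11 in WT) and all 3 genes with n-TLaag8 on chromosome 14. On chromosome 3 at 96497781 to 96501518, n-TGtcc7 and n-TEctc13 shared a peak of 9 tags in KO and 8 in WT, while n-TNgtt12 and n-TKctt16 each had 7 WT tags and no KO peak. On chromosome 5 at 125404250 to 125409543, n-TDgtc14 and n-TAtgc5 had 8 tags in each genotype, and n-TDgtc15 and n-TFgaa7 a WT peak of 5 tags. These clusters thus held a shared peak and, within a few kilobases, a WT peak without a KO partner.

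The reverse was found on chromosome 13 at 23517203 to 23530419. There n-TMcat6 and n-TStga1 had a peak of 6 tags in KO and 7 in WT, and n-TRtcg1 (7 tags) and n-TMcat9 (8 tags) were in the KO list alone. In the cluster beside it, the KO peak at n-TMcat5 (7 tags) and the WT peak at n-TRacg4 and n-TSaga7 (9 tags) lay next to each other without overlap, the KO summit 511 bp from n-TRacg4 and thus just outside the limit for that gene. The WT list alone held n-TPtgg4, n-TVaac7 and n-TLaag6 on chromosome 11 (1 peak of 9 tags) and n-TDgtc11, n-TStga2 and n-TDgtc12 on chromosome 13 (11, 5 and 6 tags), the last in a cluster of 15 genes. Of the 9 members that stand alone, all were in the WT list and 6 in the KO list as well.

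**Figure D4:**
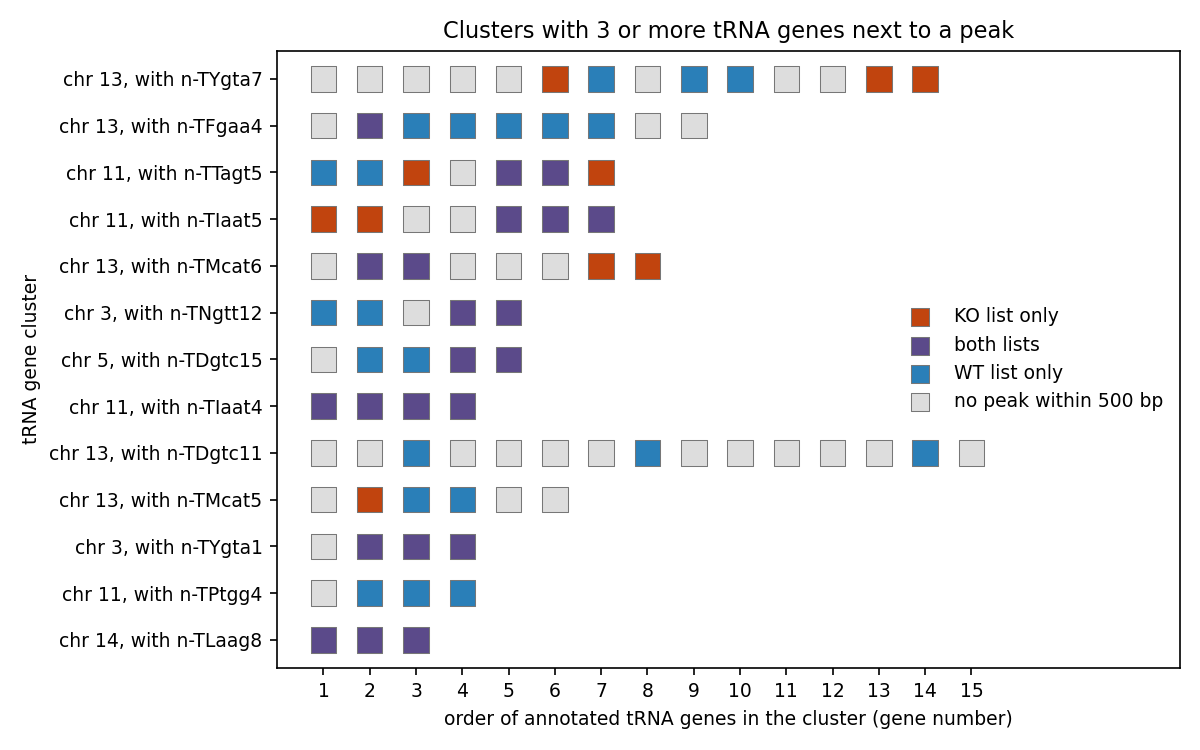
The 13 clusters with 3 or more members, each square 1 annotated tRNA gene in chromosome order (gene number on the x axis, spacing not to scale), coloured by KO list alone, both lists, WT list alone or no peak within 500 bp. Each row is named by its chromosome and first member. The 4 genes of the chromosome 11 row with n-TIaat4 are all in both lists, while the top row has 3 KO genes and 3 WT genes with none in common.

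Peaks found in both genotypes were compared pair by pair. Of the KO peaks next to tRNA genes 25 of 40 were overlapped by a WT peak, and of the WT peaks 26 of 49 by a KO peak. Paired 1 to 1, there were 24 pairs, 23 of them with the same nearest tRNA gene and with summits a median of 48 bp apart. The counts differ because the KO peak of 5 tags at n-TYgta9 on chromosome 5 was overlapped by WT peaks of 5 and 8 tags. Their pileups summed to 194 tags in KO and 239 in WT. Corrected for the depth of the ChIP libraries, the KO/WT ratio was 1.12 (0.921 to 1.36), an interval of counting error that holds 1. The ratio was above 1 in 16 pairs and below 1 in 8, and ran from 0.689 to 2.07. Before scaling, the WT pileup was higher in 18 pairs, the KO pileup in 4, and 2 were equal. Both lists had the same lowest pileup of 5 tags, which for a KO peak is 6.89 at the WT depth. This common floor can raise the scaled ratio. With the floor matched for depth the ratio was 1.07. The interval of every single pair held 1, and the narrowest spanned a factor of 5.47 between its bounds. The fold over input was higher in KO in 12 of the 24 pairs. A pair exists only where both libraries gave a listed peak, so the values cannot stand for all tRNA genes or show that the genotypes were alike.

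The highest pair was n-TTtgt3, a threonine tRNA gene on chromosome 14, with n-TPagg4 beside it. It had 11 tags in KO and 16 in WT, a ratio of 0.948 (0.398 to 2.17). At n-TMcat11, a methionine tRNA gene on chromosome 3 270 bp from Ilf2, there were 12 tags in KO and 14 in WT (ratio 1.18, 0.499 to 2.75), with the summits 3 bp apart inside the gene. At n-TRccg1, an arginine gene alone on chromosome 11, there were 12 and 13 tags in KO and WT (ratio 1.27, 0.531 to 3.02). At these pairs the fold over input leaned opposite to the ratio. It was 9.61 in KO and 6.21 in WT at n-TTtgt3, 5.92 and 10.8 at n-TMcat11, and 7.57 and 9.71 at n-TRccg1. The local input background was level with the highest of its list at n-TTtgt3 in WT (1.73801 scaled input tags) and at n-TMcat11 in KO (1.19567).

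Of the highest pairs, n-TFgaa4 leaned most to KO, with 13 tags in KO and 10 in WT (ratio 1.79, 0.726 to 4.56). The leucine gene n-TLaag8 and the threonine gene n-TTtgt1, both on chromosome 14, leaned most to WT, each with 7 tags in KO and 14 in WT (ratio 0.689, 0.235 to 1.82). Between these were n-TLtag3 (11 tags in KO, 13 in WT, ratio 1.17) and n-TLcag3 (8 tags in KO, 10 in WT, ratio 1.10), whose sum of 18 tags was shared by the pairs at n-TIaat4, n-TSgct3 and n-TYgta2. The fold leaned the same way as the ratio at n-TFgaa4 (11.2 in KO, 8.20 in WT), n-TLaag8 (6.41 and 11.2) and n-TTtgt1 (6.30 and 10.6). It leaned the other way at n-TLtag3 (6.99 in KO, 10.4 in WT) and n-TLcag3 (5.63 and 5.89). The largest ratio of all 24 pairs was at n-TEttc1, a glutamate gene on chromosome 1, with 9 tags in KO and 6 in WT (2.07, 0.657 to 7.06).

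**Figure D5:**
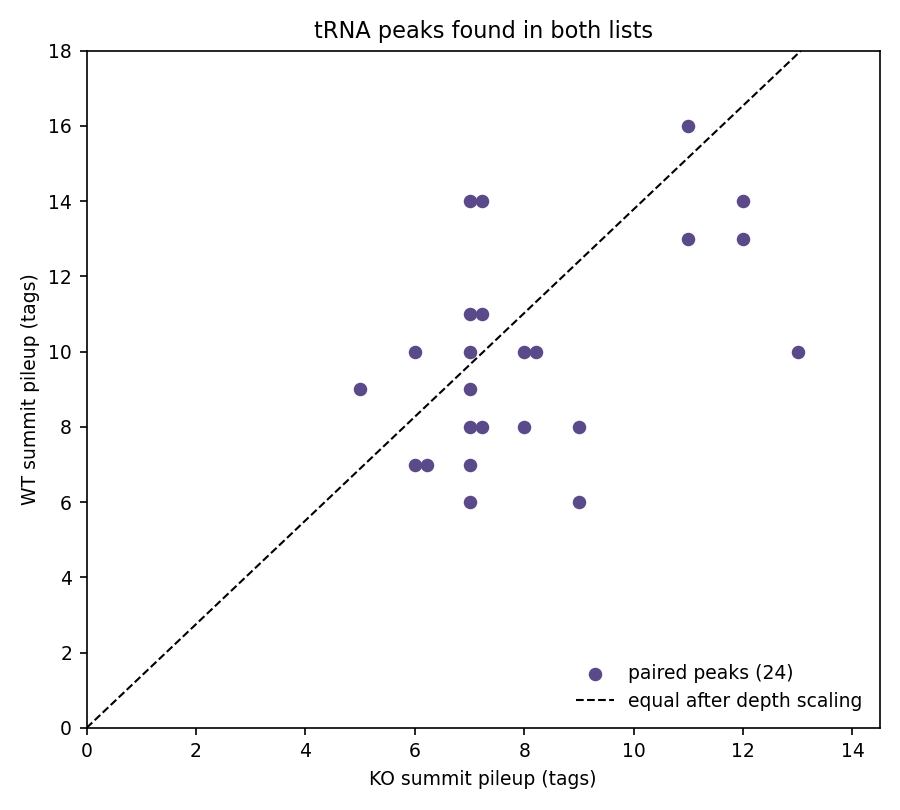
Summit pileup in tags in KO (x axis) and WT (y axis) for the 24 peaks next to tRNA genes paired between the lists, with points of equal values moved slightly sideways. The dashed line marks equal signal after correction for library depth, and the points fall on both sides of it, 16 with a KO/WT ratio above 1 and 8 below.

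Unshared peaks reached from the lowest heights to nearly the highest. In the KO list 15 peaks had no overlapping WT peak, with a median of 7 tags (6 to 13), and in the WT list 23 had no overlapping KO peak, with a median of 7 tags (5 to 14). The KO-only peak of highest fold was at n-TVcac7, a valine gene 343 bp from Trim41, with 13 tags (6.92 to 22.2) and fold 8.76. It was followed by n-TRtct1 with n-TVtac1 on chromosome 19 (9 tags, fold 7.36), n-TTagt6 and n-TMcat9 (8 tags and fold 7.21 each), the last 625 bp from the histone gene H4c8. Next came n-TKctt10 with n-TAtgc9, inside the annotated span of Trim7, and n-TIaat5 with n-TSaga4 (7 tags and fold 6.41 each), which tied with n-TTagt4, n-TMcat5 and n-TRtcg1, 5 peaks in all.

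In the WT list alone, fold was highest at n-TMcat15, n-TLaag7 and n-TLaag5 (13 tags, 6.92 to 22.2, fold 10.3), followed by n-TDgtc11, an aspartate gene on chromosome 13 (11 tags, fold 8.48). Then came n-TLcaa3 with n-TEctc10 on chromosome 11 (10 tags, fold 8.20), n-TRtcg5 in Polg and n-TScga3 with n-TTagt5 (14 tags and fold 8.03 each), and n-THgtg5 with n-THgtg3 on chromosome 2 (9 tags, fold 7.46). These 6 peaks were chosen for their fold and do not stand for all 23. Over all WT peaks next to tRNA genes the unshared ones were lower than the shared ones, with medians of 7 and 9.5 tags, and 6 of 23 against 13 of 26 had 10 or more tags.

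A position with no listed peak has no deposited pileup, so the level in the other genotype is unknown there and no ratio is given. Scaled to the other library's depth, the 15 KO-only peaks would hold 8.27 to 17.9 WT tags, all above 5, the lowest pileup of a WT peak next to a tRNA gene. The 23 WT-only peaks would hold 3.63 to 10.2 KO tags, and 7 of them would fall under 5, the lowest such KO pileup. Of these 7, 2 would fall under 4, the lowest pileup of any chromosomal KO peak, so that equal signal could go unlisted there. The lowest listed pileup is not a detection limit, because such counts are imprecise (7 tags have a Poisson interval of 2.81 to 14.4). The scaled values also start from peaks listed for their height in 1 library. Whether the unshared peaks differed between the genotypes was not tested. Among peaks of 10 or more tags, 5 of 6 in KO and 13 of 19 in WT were overlapped by the other list, and among lower ones 20 of 34 in KO and 13 of 30 in WT.

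Part of the genes lay close to protein-coding genes. Of the members 33 (35.5%, 25.8 to 46.1) were inside or within 3000 bp of a protein-coding gene, against 62 of the other 310 tRNA genes (20%, 15.7 to 24.9). Without the cysteine family it was 31 of 91 (34.1%, 24.5 to 44.7), against 59 of 255 (23.1%, 18.1 to 28.8), a smaller gap with overlapping intervals. With only the nearest gene of each peak, cysteine genes included, it was 26 of 65 (40%, 28.04 to 52.9), against 69 of 338 (20.4%, 16.2 to 25.1). The 338 include members that were not the nearest gene of a peak. Genes of 1 cluster share their neighbours and are not independent, so these intervals are too narrow. Lying inside a protein-coding gene was the rarer case, with 3 members and 31 others (3.23% and 10%). Besides those named above, n-TKctt17 lay 91 bp from Psma3, a proteasome subunit gene (5 tags in KO, 9 in WT). n-TQctg9 lay 290 bp from Rab11a, a recycling endosome GTPase gene (6 tags in KO, 10 in WT). At these sites a summit near the tRNA gene is near an end of the protein-coding gene as well, and which of them the signal belongs to was not tested.

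Other genes that RNA polymerase III transcribes had peaks in some kinds and not in others. None of the 69 annotated 5S rRNA genes, which also have an internal promoter, and none of the 3 U6 genes, whose promoter lies outside the gene, had a summit within 500 bp in either list. The intervals reach 5.21% for the 5S genes and 70.8% for the U6 genes. Both hold the shares of all annotated genes (0.31% in KO and 0.681% in WT). Of 8 further RNA genes, 3 had a KO peak (37.5%, 8.52 to 75.5) and 4 a WT peak (50%, 15.7 to 84.3), so that 5 were in either list. Both shares were above those of tRNA genes (14.4% in KO and 18.6% in WT), which lie inside these wide intervals. Both lists held the RNA genes of the 7SK particle, Rn7sk (11 tags in KO, 18 in WT), and of the signal recognition particle, Rn7s1 (7 tags in KO, 11 in WT). Rny1, a Y RNA gene, was in the KO list alone (9 tags), and Rn7s2 (9 tags) and Rmrp, the RNA of RNase MRP (7 tags), in the WT list alone.

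The protein-coding genes of the tRNA pathway had few peaks, as protein-coding genes had in general (0.292% of 21887 in KO and 0.914% in WT). Of 18 genes for RNA polymerase III subunits, 1 had a KO peak, Polr2e, a subunit shared by the nuclear RNA polymerases (6 tags, fold 4.96), and none a WT peak. None of 18 genes for its transcription factors had a peak in either list. Among 30 genes for tRNA processing and modification the only one was Pop7, a subunit of RNase P and MRP, in WT (9 tags, fold 7.46), and among 20 cytosolic aminoacyl-tRNA synthetases it was Aars, the alanyl enzyme, in WT (6 tags, fold 5.22). These counts were the same with a limit of 3000 bp.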

How the data were processed

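The 2 peak lists, 1 per genotype, were used as deposited. Per the file headers, MACS 2.1.1.20160309 called peaks per genotype, ChIP over its own input, with a q cutoff of 0.5, the human preset for effective genome size, single-end tags, 1 tag kept per position, fragments of 300 bp (KO) and 299 bp (WT), and the larger library scaled to the smaller. Trim Galore, Bowtie2, SAMtools, deepTools and build mm10 are named per the submitters' processing notes. The deposited pileup is an unscaled signal, the coverage by extended ChIP tags at the summit. The deposited fold is a ratio of pileup plus 1 to local input background plus 1. The deposited −log10 p and q-values come from the authors' caller.

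tRNA genes were those of the RefSeq table (GRCm38.p6) with biotype tRNA and a symbol beginning n-T. The local background was recovered from pileup and fold. High input means at least 10 times the genome-wide background. Ratios were scaled by filtered ChIP tags (2235818 in KO, 3081692 in WT). Intervals (95%, Clopper-Pearson, exact Poisson and exact conditional; scipy 1.17.1) cover counting error only. The distance and interval code was tested on simulated data. The other RNA genes and pathway genes came from fixed lists. Named genes were the 8 highest pairs, the 6 KO-only and 6 WT-only peaks of highest fold, the 4 clusters with most members, the 3 genes on each side of the 500 bp limit, families with all or no genes next to a peak, and list genes with a peak, with ties broken by chromosome and position; n-TEttc1, the cysteine genes, the smaller clusters, the sequences and further neighbours were added after their values were seen. The members and lists were chosen with earlier results of these data known. No test compares the genotypes.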

Additional observations from a re-analysis of the deposited data

How the results depend on the processing

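Of 88 values recomputed under other settings, 74 stayed within their interval or within 1.5 times and 14 moved further. With the summit required inside the gene, 10 KO genes, 11 WT genes and 3 in both were left (30% of the KO and 27.3% of the WT genes), with 16 anticodon families and 17 clusters, because fewer genes qualify. With a limit of 250 bp 24 genes were in both lists (54.5% of the KO genes). With the whole peak overlapping the gene it was 26. With a fold of at least 5 it was 26 (50% of the KO genes). With each peak given to its nearest gene, a setting added after seeing the data, there were 49 WT genes and 24 in both. No value moved that far with the limit of 1000 bp, q of at most 0.05 or low-input peaks alone. The same held for the depth-matched pileup, other cluster gaps and other scalings of the ratio. The KO/WT ratio of summed pileups at pairs ran from 1.07 to 1.16. The ratio of the median folds over input at pairs, another measure, was 1.03. No paired analysis was possible because each group has 1 library. Depth limits all values: most pileups are under 10 tags.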
